A study of Homo sapiens with 12 samples.

Results

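The RNA levels of 10 genes of the stress pathway run by the transcription factors ATF4 and CHOP were followed through 4 groups of cultured MIA PaCa-2 cells, a long-established human pancreatic carcinoma line. The genes are ATF4, ATF5, DDIT3 (which encodes CHOP), CEBPB, TRIB3, PPP1R15A, DDIT4, SESN2, ASNS and CHAC1. They were picked by symbol from a table of 24528 genes, and all 10 were among the 15021 genes that passed the filter on low counts. Each was found on 1 row, so the set holds 10 of 24528 genes.

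The study lowered the RNA-binding proteins Musashi-1 (gene MSI1) and Musashi-2 (gene MSI2) with short hairpin RNAs (shRNAs) carried by lentiviruses. Every group was infected for 72 hours and then sorted by fluorescence, and 200 ng of total RNA went into each library. There were 3 libraries in each of 4 groups. Control cells received a scrambled shRNA. Msi1 knockdown cells received the Musashi-1 shRNA, whose virus carries GFP, and Msi2 knockdown cells the Musashi-2 shRNA, whose virus carries Tomato Red. Double knockdown cells received both viruses and were sorted as positive for both colours. All groups come from 1 cell line, with virus and sorting in common, and which tag and gate the control cells had is not given in the sources used here. Nor do the labels say whether the 3 libraries of a group came from separate cultures, so p-values measure the spread between these libraries, which may be technical.

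When misfolded proteins, a lack of amino acids, loss of haem or viral RNA activate the kinases of the translation factor eIF2, most protein synthesis slows while the mRNA of ATF4 is translated better. ATF4 then pairs with C/EBP proteins or CHOP on composite DNA elements and turns on genes for amino acid supply, redox balance and stress feedback, and prolonged CHOP activity is known for promoting cell death. Because much of the control of ATF4 lies in translation, the RNA levels given here do not measure the amount or activity of the protein.

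The composite element and related motifs were looked for in the promoters, because ATF4 and its partners are known to bind such elements. Promoter stretches came from RefSeq on GRCh38.p14, from 250 bases before to 50 bases after each annotated start, and all 10 genes matched, with 18 windows. Windows of the same gene can overlap, almost whole for ATF4, DDIT3 and TRIB3, so the 18 are not separate promoters. On either strand, the C/EBP-ATF response element TGATGNAA was present in 2 of the 18 windows and in 3.62% of 35116 RefSeq promoters of that length. The cyclic AMP response element TGACGTCA was present in 1 of 18 windows and in 1.85% of all promoters, and the endoplasmic reticulum stress element in 0 of 18 and in 0.0769%. The 3 matches are printed with 11 flanking bases on each side, on the strand of the gene, with the match in capitals.
ASNS: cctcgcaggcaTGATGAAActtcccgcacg
CHAC1: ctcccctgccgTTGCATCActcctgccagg
PPP1R15A: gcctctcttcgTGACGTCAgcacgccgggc
The ASNS stretch lies at chr7:97872458-97872487 on the minus strand, and its match runs from 68 to 61 bases before the start, in only 1 of the gene's windows. The CHAC1 stretch lies at chr15:40953251-40953280 on the plus strand, with the element on the opposite strand from 209 to 202 bases before the start. The PPP1R15A stretch lies at chr19:48872352-48872381 on the plus strand, with the match from 58 to 51 bases before the start. A match is a run of letters and not a measured binding site, and these genes did not move alike, as the values further on show.

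Library totals ran from 10948191 estimated counts in control replicate 3 to 56122207 in double knockdown replicate 1. Against control, MSI1 changed by -1.33 ± 0.16 (SE) on the log2 scale in the Msi1 knockdown (edgeR adjusted p = 1.5e-06), by 0.41 ± 0.13 in the Msi2 knockdown (0.024) and by -1.42 ± 0.15 in the double knockdown (3.7e-07). MSI2 changed by -2.46 ± 0.09 in the Msi2 knockdown and by -2.81 ± 0.09 in the double knockdown, and also by -0.61 ± 0.08 in the Msi1 knockdown (edgeR adjusted p = 6.8e-06). Of the markers of the carcinoma line, KRT8 ran from 1080 to 1650 CPM (counts scaled to a library total of 1000000), KRT18 from 1110 to 1710 CPM and VIM from 4840 to 6030 CPM, while 4 blood cell markers summed to at most 1.12 CPM, with CD3E at 0 in every library. A fibroblast list summed to between 548 and 885 CPM through COL1A2 and COL3A1, with LUM, DCN and PDGFRB each at most 1.71 CPM. In bulk RNA, fewer cells with a transcript and less of it per cell cannot be told apart. Libraries also differed within groups along a trend that held 54.5% of the within-group variance, with scores of -1.54 to -1.05 in the double knockdown libraries and of -0.39 to 1.38 in the other 9. In the knockdown groups many members ordered with the score: 9 of the 10 had their lowest Msi2 value in replicate 2 (score 1.06) and 9 their highest in replicate 3 (score -0.39). Likewise 9 had their highest Msi1 knockdown value in replicate 1 (score 0.1, against 1.36 and 1.38), and 9 their highest double knockdown value in replicate 1 (score -1.54). The control group did not show this as clearly, since replicate 2, with its highest score (0.7), held the lowest value of 5 members and the highest of 3. How many of all genes tested order with the score was not counted, so this order is not shown to be particular to these 10 genes. The direction of the trend was found from the within-group deviations of these same counts. The score itself measures each library along it from the mean of all libraries. It therefore also carries differences between groups, and the double knockdown libraries do not overlap the other 9. A model that holds the score can take up part of a knockdown change, above all in the double knockdown. It can also understate the spread and give p-values that are too small. The part of the trend in the results was not tested, and values from a model with the score as a covariate are given where they change a call.

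Levels of different genes were compared per kilobase of the longest GENCODE 29 transcript. In control cells ATF4 stood highest at 91.6 ± 1.9 CPM per kilobase (SD, n = 3), followed by ASNS at 66.7 ± 1.6 and DDIT4 at 59.6 ± 3.0. ATF5 stood at 30.1 ± 1.5 and TRIB3 at 14.5 ± 0.3. PPP1R15A at 10.2 ± 0.60 and DDIT3 at 9.60 ± 0.56 CPM per kilobase overlapped between libraries. SESN2 (7.07 ± 0.22), CEBPB (5.84 ± 0.24) and CHAC1 (2.89 ± 0.26) were the least abundant, and no other neighbours in this order overlapped. In the double knockdown the order changed at 1 place, where CEBPB at 13.9 ± 1.2 CPM per kilobase stood above DDIT3 at 10.5 ± 0.6 and SESN2 at 7.87 ± 0.46. There, ASNS (49.7 ± 0.49) and DDIT4 (47.0 ± 2.4) overlapped, as did DDIT4 and ATF5 (42.5 ± 3.1), PPP1R15A (14.0 ± 0.79) and CEBPB. The ATF4 and ASNS rows are less certain, since GENCODE 29 lists 4 pseudogenes of each, which share sequence with the parent gene. DDIT3, ATF5, CEBPB, DDIT4 and ASNS overlap genes on the opposite strand, and DDIT3, ATF5 and ASNS also overlap genes on their own strand. Reads from such overlaps can be assigned to either gene, and whether counting kept the strand is not given in the sources used here.

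**Figure D1:**
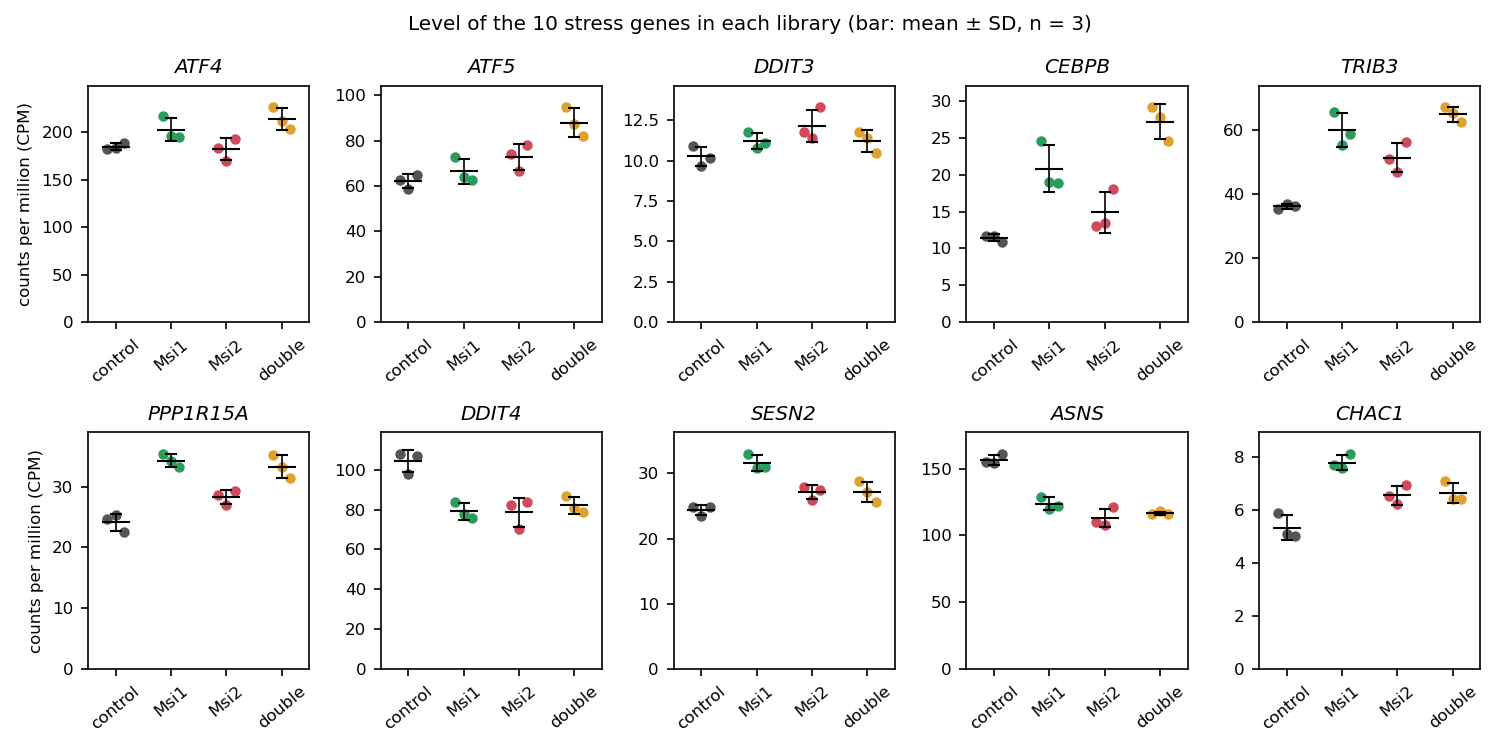
Level of each of the 10 genes in CPM (vertical axes, from 0) in the 3 libraries of each group, with the mean and SD as bars. CEBPB and TRIB3 stand lowest in the control libraries, while DDIT4 and ASNS stand highest there.

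Among the transcription factors, CEBPB and ATF5 rose in the double knockdown while ATF4 and DDIT3 moved little. ATF4, the pathway's central activator, was measured at 182, 183 and 189 CPM in control, at 217, 196 and 195 CPM in Msi1 knockdown, at 183, 170 and 193 CPM in Msi2 knockdown and at 226, 212 and 203 CPM in double knockdown libraries. The Msi1 and double knockdown libraries lay above all control libraries, and the Msi2 knockdown libraries overlapped control. The log2 change was 0.13 ± 0.07 (SE) in the Msi1 knockdown (edgeR adjusted p = 0.119) and -0.02 ± 0.07 in the Msi2 knockdown (0.836). In the double knockdown ATF4 rose by 0.21 ± 0.07 (edgeR adjusted p = 0.0119). The ATF4 call did not survive leaving out control replicate 1 (adjusted p = 0.0539), control replicate 2 (0.0575) or double knockdown replicate 1 (0.0635). The ATF4 change was also 0.06 (edgeR adjusted p = 0.433) with the library trend score in the model, 0.13 (0.067) after correction for GC content and length, and 0.16 (0.0573) with all libraries thinned to the smallest total. With the trend score in the model the Msi1 knockdown change of ATF4 was 0.23 (0.000254).

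ATF5, a relative of ATF4 that is likewise controlled in translation, was measured at 62.8, 58.9 and 65.0 CPM in control and at 73.0, 64.1 and 62.9 CPM in Msi1 knockdown libraries, which overlapped. Its Msi2 knockdown libraries held 74.0, 66.8 and 78.0 CPM and its double knockdown libraries 94.7, 87.3 and 82.0 CPM, the highest of the 4 groups without overlap. ATF5 rose by 0.50 ± 0.08 on the log2 scale in the double knockdown (edgeR adjusted p = 1.92e-05) and by 0.23 ± 0.08 in the Msi2 knockdown (0.0252). In the Msi1 knockdown the log2 change was 0.10 ± 0.08 (0.297), or 0.24 (0.000377) with the library trend score in the model. The Msi2 knockdown call of ATF5 did not hold without control replicate 1 (adjusted p = 0.0868) or 2 (0.131) and without Msi2 knockdown replicate 1 (0.0878) or 3 (0.0969).

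DDIT3, which encodes CHOP, the factor that ties lasting stress to cell death, was measured at 10.9, 9.69 and 10.2 CPM in control and at 11.8, 11.4 and 13.3 CPM in Msi2 knockdown libraries. The Msi2 knockdown libraries lay above control without overlap, and DDIT3 rose by 0.24 ± 0.09 on the log2 scale (edgeR adjusted p = 0.0403). The call was lost under 13 of 20 alternatives, among them leaving out control replicate 1 (0.0577), 2 (0.197) or 3 (0.089), Msi2 knockdown replicate 1 (0.0649) or 3 (0.172), Msi1 knockdown replicate 2 (0.0586) or 3 (0.0553), or double knockdown replicate 2 (0.0619) or 3 (0.0562). With thinned libraries the DDIT3 change was 0.13 (edgeR adjusted p = 0.453). In the Msi1 knockdown the libraries held 11.8, 10.8 and 11.1 CPM and in the double knockdown 11.8, 11.4 and 10.5 CPM, both overlapping control. The log2 change of DDIT3 was 0.13 ± 0.09 in each (edgeR adjusted p = 0.262 and 0.211, respectively). In the double knockdown it was -0.06 with the library trend score in the model, and in the Msi1 knockdown 0.24 (0.023).

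CEBPB, which encodes the C/EBP partner protein that binds DNA together with ATF4 and CHOP, moved most of the 10. Control libraries held 11.7, 11.7 and 10.9 CPM, Msi1 knockdown libraries 24.5, 19.0 and 18.9 CPM, Msi2 knockdown libraries 13.1, 13.5 and 18.1 CPM, and double knockdown libraries 29.1, 27.8 and 24.5 CPM. All 9 knockdown libraries lay above all 3 control libraries, with Msi2 knockdown replicate 3 above its 2 fellows. CEBPB rose 1.81-fold in the Msi1 knockdown (log2 change 0.86 ± 0.13, edgeR adjusted p = 3.53e-05) and 2.36-fold in the double knockdown (1.24 ± 0.12, 3.52e-07). In the Msi2 knockdown it rose 1.30-fold (0.38 ± 0.13, edgeR adjusted p = 0.0314). That last call was lost without control replicate 1 (0.106), 2 (0.0875) or 3 (0.087), without Msi2 knockdown replicate 3 (0.22, 0.168), with no filter on low counts (0.0594) and after correction for GC content and length (0.28, 0.0725).

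Both feedback genes rose in all 3 knockdown groups, which are compared with the same control libraries. TRIB3 encodes a pseudokinase that is induced by ATF4 and CHOP and damps them in turn. It was measured at 35.5, 36.9 and 36.3 CPM in control, at 65.9, 55.4 and 58.9 CPM in Msi1 knockdown, at 51.1, 47.1 and 56.3 CPM in Msi2 knockdown and at 67.2, 65.4 and 62.5 CPM in double knockdown libraries. Every knockdown library exceeded every control library, and the Msi2 knockdown libraries overlapped the Msi1 knockdown libraries. TRIB3 rose 1.66-fold in the Msi1 knockdown (log2 change 0.73 ± 0.08, edgeR adjusted p = 3.13e-07), 1.42-fold in the Msi2 knockdown (0.51 ± 0.08, 4.23e-05) and 1.80-fold in the double knockdown (0.84 ± 0.08, 4.27e-08). These calls were kept under all 20 alternatives.

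PPP1R15A encodes GADD34, the subunit that directs protein phosphatase 1 to eIF2 and so restores translation. Control libraries held 24.6, 25.3 and 22.6 CPM, Msi1 knockdown libraries 35.4, 34.3 and 33.2 CPM, Msi2 knockdown libraries 28.6, 27.0 and 29.3 CPM, and double knockdown libraries 35.2, 33.2 and 31.4 CPM. No knockdown library overlapped control, and the Msi2 knockdown libraries lay between control and the other groups. PPP1R15A rose by 0.50 ± 0.07 on the log2 scale in the Msi1 knockdown (edgeR adjusted p = 1.04e-05), by 0.22 ± 0.07 in the Msi2 knockdown (0.02) and by 0.45 ± 0.07 in the double knockdown (1.91e-05). The Msi2 knockdown call of PPP1R15A was lost without control replicate 1 (0.0681) or 3 (0.0884) and without Msi2 knockdown replicate 1 (0.058) or 3 (0.0637).

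The genes that restrain the growth kinase mTORC1 went opposite ways. DDIT4 encodes REDD1, which acts through the TSC complex and is also induced by hypoxia and glucocorticoids. It was measured at 108, 98.1 and 107 CPM in control, at 84.0, 78.0 and 75.6 CPM in Msi1 knockdown, at 82.2, 70.2 and 83.7 CPM in Msi2 knockdown and at 87.0, 80.7 and 79.0 CPM in double knockdown libraries. The 9 knockdown libraries all lay below the 3 control libraries and overlapped one another. DDIT4 fell in the Msi1 knockdown (log2 change -0.39 ± 0.07, edgeR adjusted p = 0.000215), the Msi2 knockdown (-0.41 ± 0.07, 0.00025) and the double knockdown (-0.34 ± 0.07, 0.000572). SESN2 encodes sestrin 2, a leucine sensor that holds mTORC1 back through the GATOR complexes. Its control libraries held 24.9, 23.5 and 24.8 CPM, and its Msi1 knockdown libraries stood above every other library at 33.0, 30.8 and 31.0 CPM. Its Msi2 knockdown libraries held 27.9, 25.9 and 27.5 CPM and its double knockdown libraries 28.8, 27.1 and 25.6 CPM, both above control without overlap.

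SESN2 rose in the Msi1 knockdown (log2 change 0.38 ± 0.07, edgeR adjusted p = 0.000187). In the Msi2 knockdown the SESN2 change was 0.15 ± 0.07 (0.095) and in the double knockdown 0.16 ± 0.07 (0.0556), neither of which passed the threshold, though the double knockdown value passed under 2 of 20 alternatives. With the library trend score in the model the Msi2 knockdown value was 0.17 (0.0143) and the double knockdown value 0.04 (0.715). Without Msi1 knockdown replicate 1, which enters the shared spread, the double knockdown value passed at 0.16 (0.0475).

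The metabolic enzymes went opposite ways as well. ASNS encodes asparagine synthetase, a classic ATF4 target that makes asparagine from aspartate and glutamine, and the stretch printed above for it holds the composite element. It was measured at 155, 154 and 161 CPM in control, at 129, 120 and 122 CPM in Msi1 knockdown, at 110, 108 and 121 CPM in Msi2 knockdown and at 116, 118 and 116 CPM in double knockdown libraries. All knockdown libraries lay below all control libraries, and the 3 double knockdown libraries nearly coincided. ASNS fell in the Msi1 knockdown (log2 change -0.34 ± 0.06, edgeR adjusted p = 0.000117), the Msi2 knockdown (-0.47 ± 0.06, 6.58e-06) and the double knockdown (-0.42 ± 0.06, 8.58e-06). The calls of ASNS and of DDIT4 against control were kept under all 20 alternatives.

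CHAC1 encodes a glutathione-degrading enzyme and is a sensitive target of ATF4 and CHOP, and its promoter stretch holds the same element on the other strand. It was the least abundant member, with between 56 and 378 counts in a library. Control libraries held 5.89, 5.09 and 5.03 CPM, Msi1 knockdown libraries 7.71, 7.58 and 8.13 CPM, Msi2 knockdown libraries 6.52, 6.23 and 6.94 CPM and double knockdown libraries 7.11, 6.43 and 6.43 CPM. All knockdown libraries lay above control, highest in the Msi1 knockdown, which overlapped no other group. CHAC1 rose in the Msi1 knockdown (log2 change 0.53 ± 0.10, edgeR adjusted p = 0.000323), the Msi2 knockdown (0.28 ± 0.10, 0.0384) and the double knockdown (0.30 ± 0.10, 0.0158). Its Msi2 knockdown call was lost under 12 of 20 alternatives, among them leaving out control replicate 2 (0.182) or 3 (0.102), Msi2 knockdown replicate 1 (0.0705) or 3 (0.119), Msi1 knockdown replicate 2 (0.056), or double knockdown replicate 2 (0.053) or 3 (0.056). Its double knockdown call was lost without control replicate 2 (0.11) or 3 (0.0501), without double knockdown replicate 1 (0.0673), with the library trend score in the model (0.20, 0.242), with thinned libraries (0.087) and after correction for GC content and length (0.14, 0.226).

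**Figure D2:**
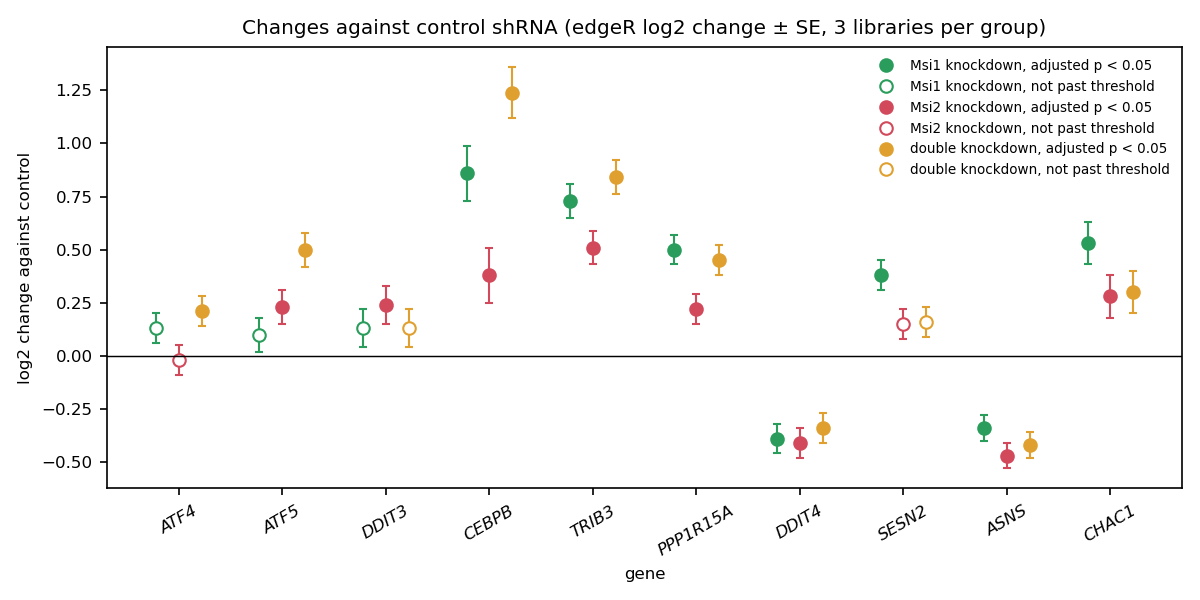
Log2 change against control (vertical axis, edgeR estimate with SE bars) for each of the 10 genes in the 3 knockdown groups, filled where the adjusted p passed 0.05. DDIT4 and ASNS lie below 0 in each group, and CEBPB in the double knockdown lies highest at 1.24.

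In the Msi1 knockdown, 5 of the 10 genes rose (CEBPB, TRIB3, PPP1R15A, SESN2 and CHAC1) and 2 fell (DDIT4 and ASNS). Over all 15021 genes tested, 39.3% were called in that comparison, 18.5% higher and 20.9% lower. The median log2 change was 0.25 over the 10 genes and 0.00 over all genes tested. In the Msi2 knockdown 6 of the 10 rose (ATF5, DDIT3, CEBPB, TRIB3, PPP1R15A and CHAC1) and 2 fell, where 30.3% of all genes were called, 16.7% higher and 13.6% lower. The median was 0.22 over the 10 genes and 0.00 over all. That count of 8 was 4 without control replicate 1, 2 or 3 or without Msi2 knockdown replicate 1, and 3 without Msi2 knockdown replicate 3. In the double knockdown 6 rose (ATF4, ATF5, CEBPB, TRIB3, PPP1R15A and CHAC1) and 2 fell, where 51.9% of all genes were called, 26.6% higher and 25.3% lower. The median was 0.26 over the 10 genes and -0.02 over all. The 3 comparisons share their control libraries.

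The single knockdowns were compared directly, to ask whether their levels differed. Their viruses also carried different colours for sorting, so effects of the shRNA, the tag and the sort cannot be told apart. MSI2 was also lowered in the Msi1 knockdown, by 0.61 ± 0.08 against control. Against the Msi1 knockdown, 5 of the 10 genes were lower in the Msi2 knockdown and 0 were higher, where 41.1% of all genes tested were called, 22.3% higher and 18.9% lower. The log2 difference, Msi2 minus Msi1 knockdown, was -0.48 ± 0.12 for CEBPB (edgeR adjusted p = 0.00297) and -0.28 ± 0.06 for PPP1R15A (0.00184). It was -0.22 ± 0.06 for SESN2 (0.00868), -0.22 ± 0.07 for TRIB3 (0.0182) and -0.25 ± 0.09 for CHAC1 (0.0341). For DDIT4 it was -0.01 ± 0.07 (0.917), for ASNS -0.13 ± 0.06 (0.0869) and for ATF4 -0.15 ± 0.07 (0.0635). The TRIB3 call was lost without Msi1 knockdown replicate 1 (0.109) and without Msi2 knockdown replicate 1 (0.055) or 2 (0.0756). The CHAC1 call was lost without Msi1 knockdown replicate 1 (0.0604), 2 (0.0504) or 3 (0.0872) and without Msi2 knockdown replicate 1 (0.0664) or 2 (0.0947). The count of 5 was 3 without Msi2 knockdown replicate 1 or 2. ATF4 passed as lower under 7 of 20 alternatives, among them the library trend score in the model (-0.22, 8.35e-05) and leaving out Msi2 knockdown replicate 3 (-0.19, 0.0364). ASNS passed as lower under 3 of 20, with the trend score (-0.18, 0.00141), with DESeq2 (-0.15, 0.037) and without Msi2 knockdown replicate 3 (-0.18, 0.0302). ATF5 passed as higher under 1, without Msi1 knockdown replicate 1 (0.20, 0.0314), and DDIT3 under 1, after correction for GC content and length (0.20, 0.023).

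Cells with both shRNAs were set against each single knockdown. Against the Msi1 knockdown, ATF5 was higher by 0.40 ± 0.07 (edgeR adjusted p = 0.000203) and CEBPB by 0.38 ± 0.11 (0.00839), while SESN2 (-0.22 ± 0.06, 0.00753) and CHAC1 (-0.22 ± 0.09, 0.0415) were lower. These are 2 higher and 2 lower of 10, where 56.0% of all genes tested were called, 29.9% higher and 26.2% lower. The count of 4 was 2 without Msi1 knockdown replicate 2 or 3, and 1 with the library trend score in the model. The CEBPB call was lost without Msi1 knockdown replicate 2 (0.0664) or 3 (0.0588), and its value was -0.18 (0.531) with the trend score in the model. ATF5 was then 0.04 (0.865) and CHAC1 -0.38 (0.181). The CHAC1 call was lost without Msi1 knockdown replicate 1 (0.0697), 2 (0.0537) or 3 (0.113) and without double knockdown replicate 2 (0.0917) or 3 (0.0901). A TRIB3 call was gained without Msi1 knockdown replicate 1 (0.19, 0.0252).

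Against the Msi2 knockdown, 5 of the 10 genes were higher in the double knockdown and 0 lower, where 45.2% of all genes tested were called, 22.7% higher and 22.5% lower. CEBPB was higher by 0.86 ± 0.11 (edgeR adjusted p = 1.67e-05), TRIB3 by 0.34 ± 0.07 (0.00086), ATF5 by 0.27 ± 0.07 (0.00527), PPP1R15A by 0.24 ± 0.06 (0.00574) and ATF4 by 0.23 ± 0.06 (0.00695). With the library trend score in the model only CEBPB of these 5 was still called, with ATF4 at 0.06 (0.561), ATF5 at 0.01 (0.913), TRIB3 at 0.12 (0.271) and PPP1R15A at 0.15 (0.199), while DDIT3 was called lower (-0.32, 0.0223). The ATF4 call was also lost without Msi2 knockdown replicate 2 (0.18, 0.0571).

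If both shRNAs acted independently on the log2 scale, the change in the double knockdown would equal the sum of the single changes. The departure from that sum passed the threshold for 6 of the 10 genes, 4 with a negative and 2 with a positive departure, each leaving the double change nearer to 0 than the sum, where 40.3% of all genes tested departed, 21.3% upward and 19.1% downward. DDIT4 had single changes summing to -0.80 and a double change of -0.34, a departure of 0.46 ± 0.10 (edgeR adjusted p = 0.00182). For ASNS the sum was -0.82 and the double change -0.42 (departure 0.39 ± 0.08, 0.00142). For CHAC1 they were 0.81 and 0.30 (departure -0.50 ± 0.13, 0.0066), and for SESN2 0.53 and 0.16 (-0.37 ± 0.09, 0.00454). For TRIB3 they were 1.24 and 0.84 (-0.39 ± 0.10, 0.00621), and for PPP1R15A 0.71 and 0.45 (-0.26 ± 0.09, 0.032). CEBPB stood at its sum, with 1.23 and 1.24 (edgeR adjusted p = 0.993). The departures of ATF4 (0.10 ± 0.09, 0.408), ATF5 (0.17 ± 0.11, 0.211) and DDIT3 (-0.24 ± 0.12, 0.117) did not pass. Double knockdown cells alone received both viruses and a sort for both colours, so a departure cannot be told apart from an effect of these. The single knockdowns were also not separate, since MSI2 changed by -0.61 ± 0.08 in the Msi1 knockdown and MSI1 by 0.41 ± 0.13 in the Msi2 knockdown.

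The control libraries enter both single changes, so their error is counted in each sum. With the library trend score in the model, under which 648 genes departed in place of 6058, the departure of DDIT4 was 0.11 (edgeR adjusted p = 0.663), that of ASNS 0.21 (0.246), that of PPP1R15A -0.38 (0.0761) and that of CEBPB -0.59 (0.0306). DDIT3 departed by -0.56 (0.0276) with that covariate and by -0.37 (0.00744) after correction for GC content and length. With thinned libraries the departure of CHAC1 was -0.48 (0.0746). The PPP1R15A departure was lost under 11 of 19 alternatives, among them leaving out control replicate 1 (0.0629) or 3 (0.0678), Msi1 knockdown replicate 1 (0.0553) or 2 (0.0567), Msi2 knockdown replicate 1 (0.0571) or 3 (0.0624), or double knockdown replicate 2 (0.0514) or 3 (0.0771).

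**Figure D3:**
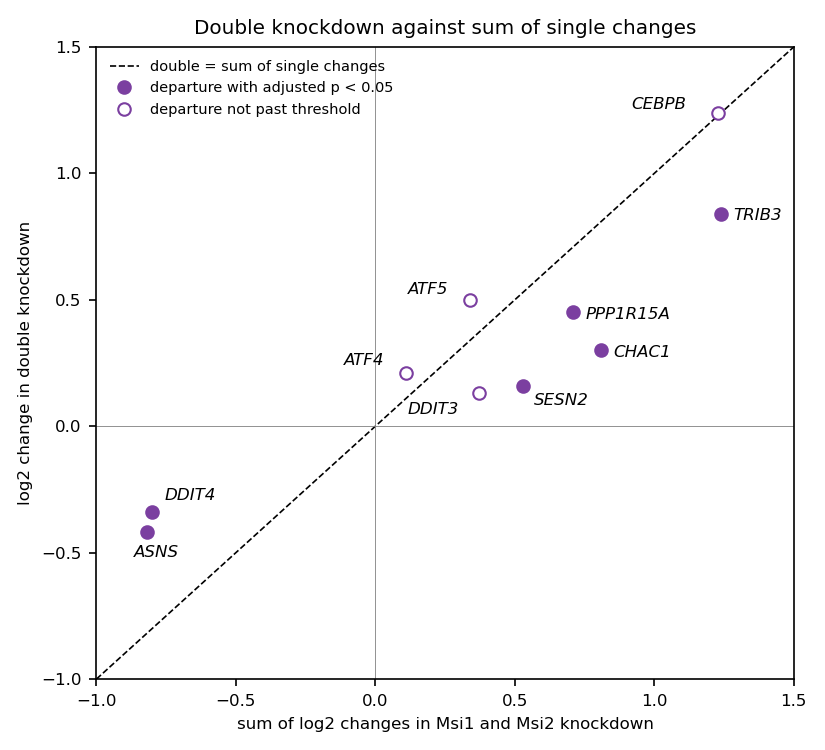
Log2 change in the double knockdown (vertical axis) against the sum of the log2 changes in both single knockdowns (horizontal axis) for the 10 genes, with the line where they are equal. CEBPB lies on the line, and DDIT4, ASNS, CHAC1, SESN2, TRIB3 and PPP1R15A, drawn filled, lie nearer to 0 than the line.

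CEBPB was the only member whose group means spanned at least 1 on the log2 scale (1.24, against 0.84 for TRIB3 and at most 0.55 for the others). Among 9422 genes with a mean of at least 10 CPM, the 3 whose centred log2 profile over the 12 libraries lay nearest to it were GADD45A, TMEM158 and FOXD1, with root mean square differences of 0.12, 0.132 and 0.144. GADD45A, a stress and growth arrest gene, averaged 31.8 CPM in control libraries, with 52.1 CPM after Msi1 knockdown, 37.9 CPM after Msi2 knockdown and 62 CPM after both.

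Of 90 further genes of the pathway or related to it, listed by role, 88 were tested. They include 13 genes of other arms of the unfolded protein response and 6 paralogues of the members. In the Msi1 knockdown 26 were higher and 25 lower (median log2 change -0.04), in the Msi2 knockdown 23 and 23 (0.01), and in the double knockdown 31 and 24 (-0.02). These counts stand beside the 39.3%, 30.3% and 51.9% of all genes called. Of all genes tested, 18.5% were higher and 20.9% lower in the Msi1 knockdown, and 16.7% and 13.6% in the Msi2 knockdown. In the double knockdown these shares were 26.6% and 25.3%. The counts of each role list below stand beside the same shares. Without control replicate 1 the Msi2 knockdown count was 30 in place of 46.

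Upstream, 16 genes were listed, those of the eIF2 kinases, eIF2 and its exchange factor eIF2B, and also PPP1R15B, IMPACT, GCN1 and OMA1. They gave 1 higher (PPP1R15B) and 6 lower in the Msi1 knockdown, and 2 and 6 in the Msi2 knockdown. In the double knockdown 5 were higher and 3 lower. EIF2AK3, which encodes the kinase PERK, fell in the Msi2 knockdown (-0.43 ± 0.09, edgeR adjusted p = 0.0015) and the double knockdown (-0.51 ± 0.09, 0.00018). PPP1R15B, the constitutive counterpart of PPP1R15A, rose in the Msi1 knockdown (0.56 ± 0.06, 7.1e-07) and the Msi2 knockdown (0.41 ± 0.06, 5e-05). In the double knockdown PPP1R15B averaged 83.7 ± 0.035 CPM (SD), against 69.3 ± 1.4 CPM in control. The 8 partners of the bZIP class dimerise with ATF4, CHOP or one another. They gave 2 higher and 2 lower in the Msi1 knockdown, 1 and 2 in the Msi2 knockdown, and 4 and 2 in the double knockdown. JDP2 fell by 1.06 ± 0.12 in the Msi1 knockdown (9.6e-07), by 0.66 ± 0.11 in the Msi2 knockdown (0.00018) and by 1.00 ± 0.12 in the double knockdown (1.1e-06). CEBPD rose in the Msi2 knockdown (0.38 ± 0.14, 0.048) and the double knockdown (1.1 ± 0.14, 2.7e-06). CEBPG fell in the Msi1 knockdown (-0.52 ± 0.07, 1.4e-05) and the Msi2 knockdown (-0.19 ± 0.07, 0.049). ATF3 rose in the Msi1 knockdown (0.73 ± 0.10, 1e-05) and the double knockdown (0.46 ± 0.10, 0.00079).

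The 11 serine, glycine, proline and transsulfuration enzymes, many of them known ATF4 targets like ASNS, gave 0 higher and 6 lower in the Msi1 knockdown, 2 and 6 in the Msi2 knockdown, and 2 and 5 in the double knockdown. ALDH1L2, a mitochondrial folate enzyme, fell by 0.54 ± 0.10 in the Msi1 knockdown (edgeR adjusted p = 0.00023), by 1.01 ± 0.10 in the Msi2 knockdown (4.1e-07) and by 1.19 ± 0.10 in the double knockdown (2.3e-08). PHGDH, the first enzyme of serine synthesis, fell in the Msi1 knockdown (-0.52 ± 0.07, 1e-05) and the Msi2 knockdown (-0.67 ± 0.07, 8.6e-07). In the double knockdown PHGDH averaged 83.2 ± 6.4 CPM (SD), against 111 ± 8.1 CPM in control. SHMT2, which makes glycine from serine in mitochondria, fell in the Msi2 knockdown (-0.68 ± 0.06, 1.3e-07) and the double knockdown (-0.39 ± 0.06, 2.5e-05). The 12 genes of tRNA synthetases and tRNA export gave 0 higher and 3 lower in each single knockdown and 1 and 3 in the double knockdown. Of all genes tested, 20.9%, 13.6% and 25.3% were lower in the Msi1, Msi2 and double knockdown, respectively. The 8 amino acid transporters gave 5 higher and 2 lower in the Msi1 knockdown, 3 and 1 in the Msi2 knockdown, and 2 and 4 in the double knockdown, with SLC1A5 higher by 0.65 ± 0.07 (8.7e-07), 0.41 ± 0.07 (0.00023) and 0.46 ± 0.07 (3.7e-05).

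Of the 13 genes of the other arms of the unfolded protein response, 9 were higher and 0 lower in each single knockdown, and 8 were higher and 2 lower in the double knockdown. HYOU1, a chaperone of the endoplasmic reticulum, rose by 0.98 ± 0.08 in the Msi1 knockdown (edgeR adjusted p = 1.7e-08), by 0.61 ± 0.08 in the Msi2 knockdown (1.3e-05) and by 0.64 ± 0.08 in the double knockdown (2.6e-06). The 6 death and oxidative folding genes linked to CHOP gave 3 higher and 1 lower, 4 and 1, and 5 and 1 in the same order. ERO1A, an oxidase that serves disulphide formation, rose by 1.21 ± 0.08 (4.3e-10), 0.88 ± 0.08 (9e-08) and 0.84 ± 0.08 (5.2e-08). Among 8 secreted and other stress targets, with 2 higher and 3 lower, 1 and 2, and 1 and 3, NUPR1 changed by -1.18 ± 0.14 (1.5e-06), -0.77 ± 0.13 (0.00015) and -1.10 ± 0.13 (1.8e-06).

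The 6 paralogues of the members gave 4 higher and 2 lower in the Msi1 knockdown, 1 and 2 in the Msi2 knockdown, and 3 and 1 in the double knockdown. TRIB1, a relative of TRIB3, rose by 1.13 ± 0.10 (edgeR adjusted p = 2.6e-08), 0.69 ± 0.10 (2.2e-05) and 1.21 ± 0.09 (8e-09), in that same order of groups. SESN3, a relative of SESN2, changed in the other direction, by -2.29 ± 0.17 (4e-09), -1.60 ± 0.15 (2.8e-07) and -2.24 ± 0.16 (3.1e-09). DDIT4L, a relative of DDIT4, rose in the double knockdown (1.30 ± 0.12, 6.6e-08), where DDIT4 fell.

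**Figure D4:**
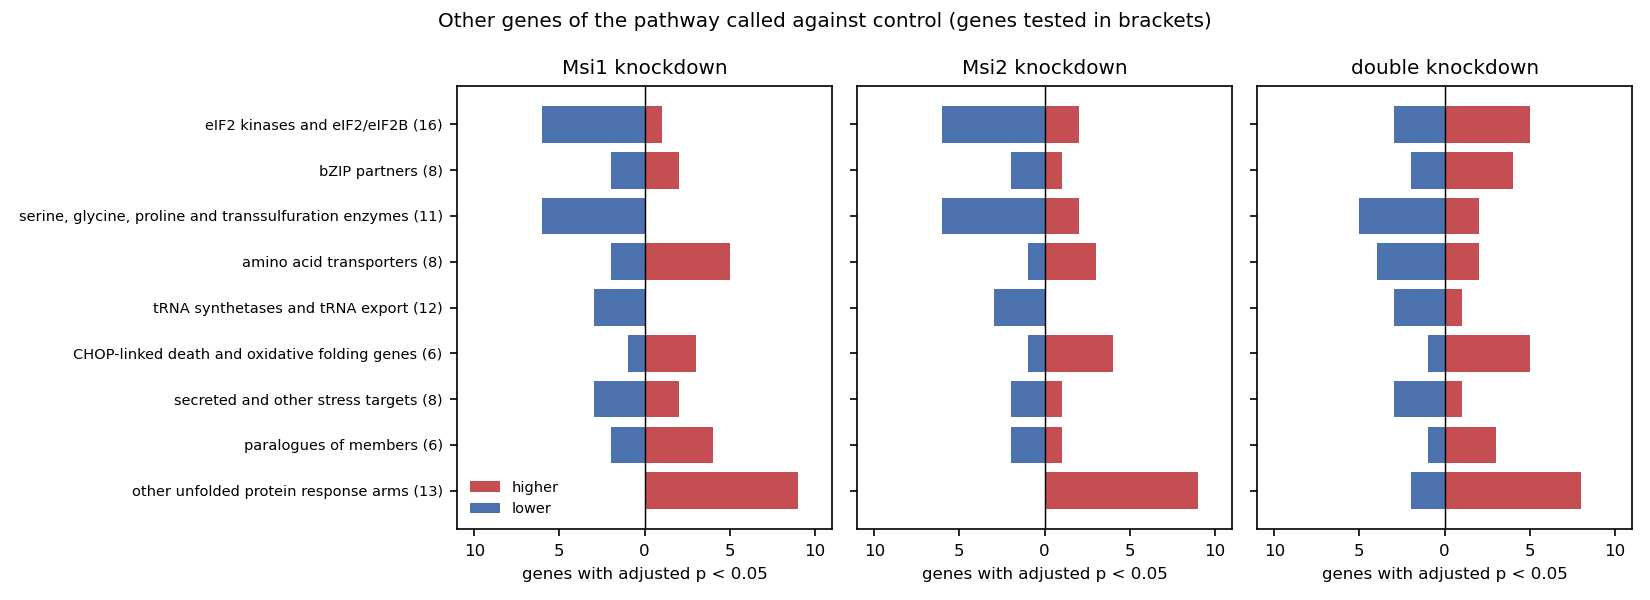
Number of genes with an adjusted p under 0.05 (horizontal axes) that were higher (right) or lower (left) than control in each role list. The lists hold genes of the pathway or related to it, with the number tested in brackets. In both single knockdowns the list of other unfolded protein response arms has 9 higher and 0 lower. There, the serine, glycine, proline and transsulfuration list has 6 lower, with 0 higher in the Msi1 and 2 higher in the Msi2 knockdown.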

How the data were processed

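The deposited table holds estimated counts per gene for 12 libraries, as whole numbers not scaled between libraries. The authors used CASAVA 1.4, the build hg19 and kallisto 0.42.1, per the submitters' processing notes. What each did, and how transcripts were summed to genes, is not given in the sources used here.

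Groups were taken from the sample titles. Counts were fitted with edgeR 4.0.16 (limma 3.58.1, R 4.3.3): TMM scaling, filterByExpr (minimum count 10), 1 quasi-likelihood model over 4 groups with 8 residual degrees of freedom, and Benjamini-Hochberg adjustment over the 15021 genes tested, with 0.05 as the threshold. CPM values use the TMM-scaled totals. An exact permutation test of 3 against 3 libraries cannot give p below 0.1 and was not used. Lengths and GC content came from the longest GENCODE 29 transcript, known for 99.3% of tested genes.

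The members and lists were chosen with earlier results of these data known. The text names all members, MSI1 and MSI2, up to 3 genes with the smallest p per role list and comparison, and the 3 nearest profiles of any member spanning at least 1 log2 unit. Where a listed gene has no test value for a group, it was not among those 3 there, which does not mean that it was unchanged. GCN1 and ERO1A were matched by older symbols.

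Alternatives were RLE scaling, DESeq2 1.42.0, no filter, the compared groups only, a replicate block, thinning to the smallest library total, the library trend score as a covariate and leaving out each library. A GC content and length correction was added after the data were seen. In simulated data for the Msi1 knockdown comparison (14981 genes), the test recovered 38% of 50 genes changed 1.25-fold. It recovered 74% of 50 genes changed 1.5-fold and 87.8% of 49 changed 2-fold. The simulation changed far fewer genes than the 39.3% called in the data and drew each gene independently. These shares may therefore not carry over to the data. The labels give no pairing. Same-numbered control and Msi2 knockdown libraries deviated together (correlations 0.18, 0.68 and 0.41), but control replicate 1 correlated more with Msi2 knockdown replicate 3 (0.21). The data therefore do not settle a pairing. Replicates differed beyond counting noise (chi-square per degree of freedom 3.65 to 33.7), and none were identical. A further marker of the carcinoma line is not reported here.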

Additional observations from a re-analysis of the deposited data

Results flagged for a closer look

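For 6 of the 10 genes the double knockdown differed from the sum of the single knockdowns on the log2 scale, by a test of the difference itself (edgeR, adjusted over all genes tested). The departures were -0.39 for TRIB3, -0.26 for PPP1R15A, 0.46 for DDIT4, -0.37 for SESN2, 0.39 for ASNS and -0.50 for CHAC1. Over all genes tested, 40.3% departed. The double knockdown libraries also had the lowest scores on the library trend, from -1.54 to -1.05, without overlap with the other libraries. A model with the score as a covariate therefore cannot tell the trend from the double knockdown, and the part of the trend in these departures was not tested. Double knockdown cells alone received both viruses and a sort for both colours, and the departures cannot be told apart from effects of these.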

How the results depend on the processing

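Of 43 member results called, 23 were called under every alternative run, and 16 of 23 in the comparisons with control: TRIB3, DDIT4 and ASNS in all 3, CEBPB and PPP1R15A in the Msi1 and double knockdown, CHAC1 and SESN2 in the Msi1 and ATF5 in the double knockdown. With no filter, 5 members were called in the Msi2 knockdown in place of 8. With the library trend score in the model, the double knockdown against the Msi1 knockdown gave 1 member, 759 genes and 7 list genes in place of 4, 8419 and 56, against the Msi2 knockdown 2 members and 2787 genes in place of 5 and 6792, and the departure from additivity 648 genes and 16 list genes in place of 6058 and 56. The score sets the double knockdown libraries apart, so with it the trend and the double knockdown cannot be told apart. The causes were not tested.

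Leaving out 1 library gave 3 to 8 members, 3013 to 4940 genes and 30 to 48 list genes in the Msi2 knockdown, 3 to 7 members between the single knockdowns, and 2 to 4 members and 35 to 60 list genes in the double against the Msi1 knockdown.

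Directions that turned were of values that had not passed the threshold, except CEBPB in the double against the Msi1 knockdown. Against control, ATF4 in the Msi2 knockdown was 0.0016 with the trend covariate and -0.06 to 0.02 on leaving out a library, and DDIT3 in the double knockdown -0.06 with the trend and -0.0049 with GC and length correction. Between the single knockdowns DDIT4 was -0.06 to 0.06 on leaving out a library. In the double against the Msi1 knockdown, DDIT3 was -0.0036 with RLE scaling, -0.0037 with DESeq2, -0.01 with the compared groups only, -0.30 with the trend, -0.09 with the correction and -0.05 to 0.05 on leaving out a library. There, the trend gave ATF4 -0.17, CEBPB -0.18, TRIB3 -0.19 and DDIT4 -0.27, and DDIT4 was -0.05 thinned and -0.04 with the correction. In the double against the Msi2 knockdown, thinning gave DDIT3 0.05, DDIT4 -0.05 and ASNS -0.01, the trend DDIT4 -0.16, SESN2 -0.13, ASNS -0.07 and CHAC1 -0.09, and the correction DDIT4 -0.02, ASNS -0.03 and CHAC1 -0.08. On leaving out a library there, DDIT4 was -0.02 to 0.11, SESN2 -0.04 to 0.04 and CHAC1 -0.03 to 0.07. The departure from additivity with the trend was -0.17 for ATF4, -0.23 for ATF5 and -0.59 for CEBPB. CEBPB departed by -0.0026 with no filter, by -0.06 with the correction and by -0.09 to 0.17 on leaving out a library.

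Over all groups, 10 of 18 same-numbered pairs had a correlation of deviations over 0.1 (range -0.54 to 0.7). Control and Msi2 knockdown were the only groups with all 3 pairs over 0.1, and 7 of 12 libraries correlated best with their own number. Differently numbered pairs ran from -0.81 to 0.7, the highest being Msi1 knockdown replicate 1 with Msi2 knockdown replicate 3. These correlations therefore do not settle whether any groups were paired. With the replicate number as a block, 6336, 4970 and 8175 genes were called in the Msi1, Msi2 and double knockdown, with 7, 8 and 9 members. The block changed no member's call in the Msi2 knockdown against control. It added SESN2 in the double knockdown (0.16, edgeR adjusted p = 0.035) and ATF4 between the single knockdowns (-0.15, 0.0418). Depth limits CHAC1 most, at 56 counts in the smallest library.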
